A study of Drosophila melanogaster with 6 samples.

Results

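Translation initiation, elongation and termination factors were examined in RNAseq data from the heads and associated tissues of female flies. Genes were taken by their FlyBase symbol, which had to begin with eIF, eEF or eRF and a digit. Of the 53 symbols of this form in the gene name table, 7 had values among the 11922 gene identifiers of the 6 samples. These were the initiation factor genes eIF2A, eIF4G2, eIF5, eIF5B and eIF6, the elongation factor gene eEF1delta and the release factor gene eRF1. The remaining 46 were not analysed here. They include eIF4E1, eIF4A, eIF4G1, eIF2alpha, eEF1alpha1, eEF2 and eRF3, so that the cap-binding complex, eIF2 and the elongation GTPases are not described. By class, values were found for 0 of 16 symbols that begin with eIF3, 1 of 13 with eIF4, 1 of 10 with eIF2, 2 of 2 with eIF5, 1 of 5 with eEF1 and 1 of 2 with eRF. The 7 genes are therefore not a sample of the whole apparatus.

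All flies were wild-type virgin females, 5 days old. The paper names Oregon-R for the wild-type flies of its locomotion assays, and gives no strain name with the RNAseq. HFD-fed flies were kept for 5 d on normal food to which 20% coconut oil had been added. ND-fed flies received the normal food. There were 3 samples for each diet with 25 flies in each, and each value is given per gene and sample in FPKM, a fragment count corrected for exon length and for sequencing depth, so that levels of different genes can be set side by side. In such bulk samples, fewer cells of a type and less RNA per cell cannot be told apart.

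Protein synthesis begins when the small ribosomal subunit with initiator tRNA is brought to the mRNA and finds the start codon. eIF5 then stimulates GTP hydrolysis by eIF2, and eIF5B, itself a GTPase, joins the large subunit to the small one. eIF6 binds the large subunit, takes part in its assembly and keeps it from joining too early. eIF4G proteins are scaffolds that hold the cap-binding protein, the helicase and the poly(A)-binding protein. eIF2A is a single-chain factor linked to initiation outside the usual eIF2 route, and is a different protein from the alpha subunit of eIF2. During elongation, eEF1delta belongs to the exchange complex that reloads eEF1alpha with GTP. At the stop codon, eRF1 recognizes the codon and triggers release of the finished chain.

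Depth was read from the spacing of the lowest FPKM values. It lay between 5.33 and 11.9 M fragments per HFD sample and between 8.15 and 10.2 M per ND sample, the lowest being HFD replicate 2. ND replicate 3 stood apart, with correlations of log2 values of 0.842 to 0.920 to the other samples, while those among HFD replicates 1 and 3 and ND replicates 1 and 2 were 0.971 to 0.979. HFD replicate 2 correlated with these 4 samples at 0.934 to 0.954. The 30 midgut marker genes with values summed to 17472, 7870 and 24346 FPKM in the HFD samples, against 25709, 27002 and 74.7 FPKM in the ND samples. Defining markers of the head were present in every sample, with the rhodopsin gene ninaE at 13953 to 16268 FPKM on HFD, against 12867 to 17904 FPKM on ND, the neuron gene elav at 11.9 to 16.2 FPKM on HFD, against 13.4 to 17.5 FPKM on ND, and the glia gene repo at 22.8 to 26.0 FPKM on HFD, against 20.5 to 26.0 FPKM on ND. The 6 heat shock genes summed to 28.5 to 30.5 FPKM on HFD, against at most 33.7 FPKM in ND replicates 1 and 2 and 149.5 FPKM in ND replicate 3. The 2 fat body markers with values, almost wholly Lsp2, summed to 63.0, 124.8 and 84.7 FPKM on HFD, against 305.8, 570.6 and 182.9 FPKM on ND, and were thus lower in each HFD sample. Ovary markers summed to between 2.51 and 3.41 FPKM and testis markers to between 1.25 and 4.88 FPKM in the 6 samples. Because ND replicate 3 could decide a difference between the diets, the log2 differences of the 7 genes are given with and without it.

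The 7 genes were not equally abundant. Averaged over the 6 samples, eIF2A was at 117 FPKM, eEF1delta at 112 FPKM and eIF5 at 94.1 FPKM. Each of these was above at least 91.0% of the 8362 genes tested. eRF1 followed with 57.4 FPKM, eIF5B with 28.6 FPKM and eIF6 with 20.4 FPKM. eIF4G2 was the lowest of the 7 at 15.4 FPKM, close to the median gene tested at 14.4 FPKM. All 7 were far above 0.5 FPKM, the lowest mean at which a gene was tested.

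**Figure D1:**
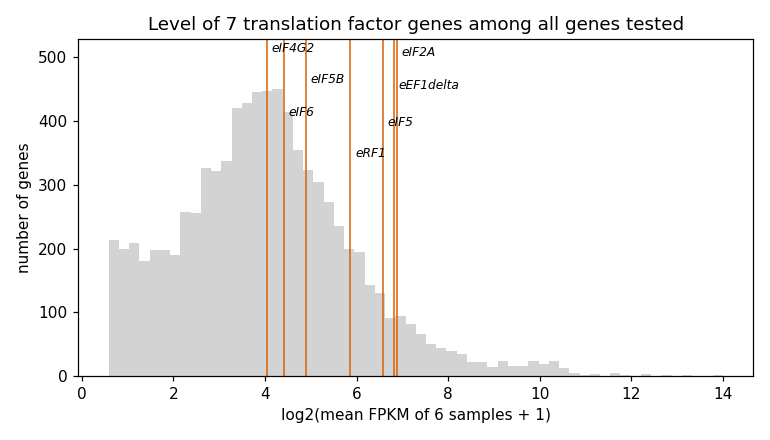
Number of genes by the log2 of their mean FPKM over the 6 samples, plus 1, for the 8362 genes tested, with the 7 translation factor genes as vertical lines. eIF4G2, at 15.4 FPKM, sits near the middle of the distribution, and eIF2A, eEF1delta and eIF5, at 94.1 to 117 FPKM, sit in its upper part.

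The order of these levels held within samples for all neighbours but the first pair. eIF2A was above eEF1delta in 3 of 6 samples, at 0.968 to 1.21 times its level, and these levels were not separated. eEF1delta was above eIF5 in 6 of 6 samples, although the ranges of their values overlapped. From eIF5 down to eIF4G2, the ranges of neighbouring genes did not overlap. eIF5, which acts on eIF2, was above the joining factor gene eIF5B. The ratio was 3.10 to 3.66 in HFD samples and 3.06 to 3.57 in ND samples. As described below, 80.8% of the exonic bases of eIF5 also belong to CG46312. The level of eIF5, its place in this order and this ratio are therefore uncertain.

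The factors of subunit joining, eIF5B and eIF6, were the least variable among the samples. eIF5B (FBgn0026259) spans 3428658 to 3460977 of chromosome 3L (BDGP6, minus strand) and has 5 transcripts, the longest in exons having 10. Its level was 29.1, 27.0 and 27.8 FPKM in HFD samples, against 30.3, 28.1 and 29.6 FPKM in ND samples. The diets overlapped, and the coefficient of variation over all 6 samples was 4.23%, the lowest of the 7 genes. On log2(FPKM + 1), HFD minus ND was -0.066 (SE 0.070, limma adjusted p = 0.973), and -0.060 without ND replicate 3.

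eIF6 (FBgn0034915) is a gene of 1 exon and 1 transcript of 1056 nt at 23849246 to 23850301 of chromosome 2R, minus strand. It sits within the span of ytr, a gene on the same strand with which it shares 0 nt of exon. eIF6 was at 20.2, 18.8 and 18.7 FPKM in HFD samples, against 21.8, 21.3 and 21.8 FPKM in ND samples. The highest HFD sample was 1.07 FPKM below the lowest ND sample, so the diets did not overlap. The means were 19.2 ± 0.855 FPKM on HFD and 21.6 ± 0.291 FPKM on ND (SD, n = 3 each), a ratio of 0.889. The log2 difference was -0.16 (SE 0.069) and its 95% interval ran from -0.33 to 0.0070. In limma p was 0.0574 before and 0.741 after adjustment. The two-sided exact permutation test gave p = 0.1, the smallest that 3 samples against 3 can give.

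By the estimated depths, only 106 to 235 fragments per sample stood behind the values of eIF6, the fewest of the 7 genes. Counting alone then gives an error of 6.52% to 9.73% per sample, which is larger than the coefficient of variation of 1.35% among the ND samples. The ND samples of eIF6 thus lay closer together than the depth can resolve. HFD replicate 1 and ND replicate 2 set the gap between the diets. Their counting errors of 7.23% and 7.39% are larger than this gap. The log2 difference kept its sign without any 1 sample, and was -0.16 without ND replicate 3. Relative to eIF5B in the same sample, a ratio that does not depend on sample scaling, eIF6 was at 0.672 to 0.696 in HFD samples, against 0.722 to 0.757 in ND samples. The gap between these ratios is smaller than the counting error of eIF6 in any sample. This pair was chosen after the values had been seen, and the ratio was not tested. Among the other ratios computed, only that of eRF1 to pelo did not overlap. It was 3.44 to 3.70 in HFD samples, against 3.78 to 4.37 in ND samples.

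**Figure D2:**
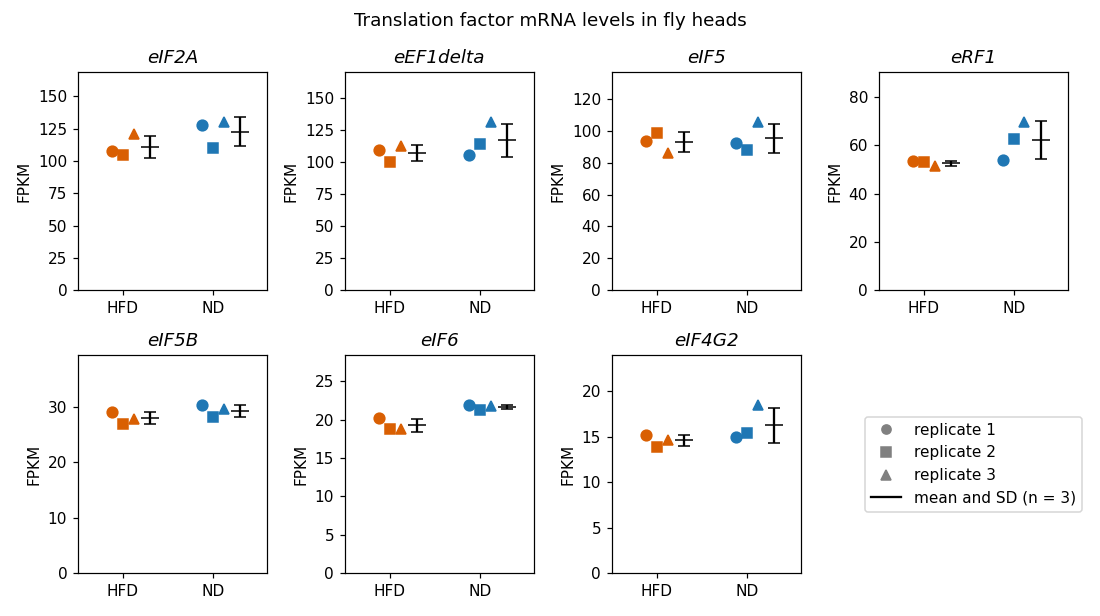
FPKM of the 7 translation factor genes, one panel each, in HFD samples (orange) and ND samples (blue), with the replicate given by the symbol and the mean and SD (n = 3) as a bar at the right of each group. The diets do not overlap for eRF1 and eIF6, and ND replicate 3, the blue triangle, is the highest sample for 5 of the 7 genes.

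The release factor gene eRF1 (FBgn0036974) showed the largest difference between the diets among the 7. The gene occupies 20348355 to 20353873 of chromosome 3L, plus strand, and has 8 transcripts. Its level was 53.6, 53.0 and 51.5 FPKM in HFD samples, against 53.9, 62.9 and 69.6 FPKM in ND samples. The HFD samples were close together, with a coefficient of variation of 2.07%, while that of the ND samples was 12.8%. By the estimated depths, counting alone gives an error of 3.06% to 4.51% per HFD sample, so this closeness is not resolved. The diets did not overlap, but only by 0.269 FPKM between ND replicate 1 and HFD replicate 1. Counting errors of 3.34% and 3.46% in these samples are larger than this gap. The means were 52.7 ± 1.09 FPKM on HFD and 62.1 ± 7.92 FPKM on ND (SD, n = 3 each), a ratio of 0.848. The log2 difference was -0.23 (SE 0.11). In limma p was 0.0807 before and 0.798 after adjustment, and the exact permutation test gave p = 0.1. Without ND replicate 3 the log2 difference of eRF1 was -0.14 (limma, adjusted p = 0.537). Without ND replicate 1 it was -0.32, which did not pass after adjustment either.

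At its 3' side eRF1 shares 189 nt, or 6.07% of its exonic bases, with CG5618 on the same strand. CG5618 was at 78.0, 63.2 and 79.4 FPKM in HFD samples, against 49.9, 68.7 and 79.6 FPKM in ND samples. In both genes ND replicate 1 was the lowest and ND replicate 3 the highest of the ND samples. How fragments of the shared bases were assigned is not given in the sources used here, and their part in the eRF1 values was not tested.

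eRF1 has close relatives and partners with values in these samples. pelo encodes a protein related to eRF1 that acts with HBS1, a GTPase related to eRF3, on stalled ribosomes. pix encodes the fly ABCE1, which splits ribosomes after release. pelo was at 14.5 to 15.1 FPKM in HFD samples, against 14.2 to 16.6 FPKM in ND samples. HBS1 was at 12.4, 10.3 and 12.2 FPKM on HFD, against 12.9, 12.6 and 12.3 FPKM on ND. Both were far below eRF1, whose mean level was 3.77 times that of pelo and 4.74 times that of HBS1. pix was more abundant than eRF1, with 119, 117 and 125 FPKM on HFD, against 126, 113 and 129 FPKM on ND. In none of pelo, HBS1 and pix did the diets separate, and their log2 differences were -0.063, -0.11 and -0.029, with limma adjusted p-values of 0.996, 0.945 and 0.998.

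eIF2A (FBgn0037135) is found at 21824740 to 21827856 of chromosome 3L, plus strand, and has 4 transcripts. It was at 108, 104 and 121 FPKM in HFD samples, against 128, 110 and 130 FPKM in ND samples. HFD replicate 3 was above ND replicate 2, so the diets overlapped. The log2 difference was -0.14 (SE 0.10, limma adjusted p = 0.942), and -0.099 without ND replicate 3. eIF2A shares 83 nt with exons of CG32448 on the opposite strand. CG32448 was at 12.9 to 17.6 FPKM on HFD and at 11.8 to 18.2 FPKM on ND. Whether the counting used strand is not given, so reads of the shared bases cannot be told apart.

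eIF5 (FBgn0030719), at 15987008 to 15991974 of the X chromosome, minus strand, had the smallest difference of the 7. Its level was 93.6, 98.7 and 86.4 FPKM in HFD samples, against 92.6, 88.1 and 105 FPKM in ND samples. HFD replicate 3 was the lowest and ND replicate 3 the highest, with the other samples of both diets mixed between them. The log2 difference was -0.036 (SE 0.098, limma adjusted p = 0.998), and its sign turned without ND replicate 3, where it was 0.038. In the annotation, 80.8% of the exonic bases of eIF5 also belong to CG46312 on the same strand, for which no value was used here. The values of eIF5 are therefore uncertain as to which of the overlapping annotations they represent.

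The elongation factor gene eEF1delta (FBgn0032198) is a compact gene at 10232507 to 10234450 of chromosome 2L, plus strand, with 2 transcripts of 847 and 928 nt. It was at 109, 99.9 and 112 FPKM in HFD samples, against 106, 114 and 131 FPKM in ND samples. ND replicate 1 lay below HFD replicates 1 and 3, and ND replicate 3 was far above the rest. The log2 difference was -0.12 (SE 0.10, limma adjusted p = 0.945). It was -0.035 without ND replicate 3, and 0.013 without both ND replicate 3 and HFD replicate 2, the pair of samples that stood apart.

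eIF4G2 (FBgn0260634) is one of the eIF4G genes of the fly and is known for its role in the meiotic divisions of spermatocytes. It occupies 23808285 to 23819237 of chromosome 3R, minus strand, and has the longest transcripts of the 7, of 7297 and 8889 nt. In these female heads it was at 15.2, 13.9 and 14.6 FPKM in HFD samples, against 14.9, 15.3 and 18.4 FPKM in ND samples. Because the transcript is long, 541 to 1375 fragments stood behind each value. Of the 10 testis markers with values, 7 were listed at 0 in all 6 samples, among them Mst84Da and Mst87F, while eIF4G2 was present in every sample. eIF4G2 shares 8.56% of its exonic bases with CG33111 on the same strand, which was at 9.17 to 13.1 FPKM on HFD and at 10.7 to 11.3 FPKM on ND.

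The diets overlapped for eIF4G2 because HFD replicate 1 was above ND replicate 1. The log2 difference was -0.14 (SE 0.10, limma adjusted p = 0.942), and without ND replicate 3 it was -0.053. NAT1, which encodes an eIF4G-related protein without the part that binds the cap-binding protein, was more abundant. NAT1 was at 111, 112 and 115 FPKM on HFD, against 111, 108 and 127 FPKM on ND. Its level was 7.32 to 8.07 times that of eIF4G2 in HFD samples and 6.88 to 7.42 times in ND samples.

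Across the 7 genes, the log2 differences (HFD minus ND) ran from -0.23 for eRF1 to -0.036 for eIF5, with a median of -0.14 and a median standard error of 0.10. All 7 were below 0. Over the 8362 genes tested, 57.2% were below 0 and the median was -0.027. With limma, 0 of the 7 had an adjusted p under 0.05, where the background was 0.0478% (4 genes). At an unadjusted p under 0.05, 0 of the 7 were higher on HFD, with a background of 3.11%, and 0 were lower, with a background of 3.6%. The diets did not overlap for 2 of the 7 genes, eRF1 and eIF6, both lower on HFD, where 8.07% of all genes tested had every HFD sample below every ND sample. With every HFD sample above every ND sample there were 0 of 7, against a background of 4.54%. With median-ratio scaling the genes with an unadjusted p under 0.05 were 378 higher and 247 lower, in place of 260 and 301, and all 7 log2 differences stayed below 0.

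The 95% intervals of the 7 log2 differences lay between -0.49 and 0.21. None of them reached 1 in either direction, which is a 2-fold change.

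**Figure D3:**
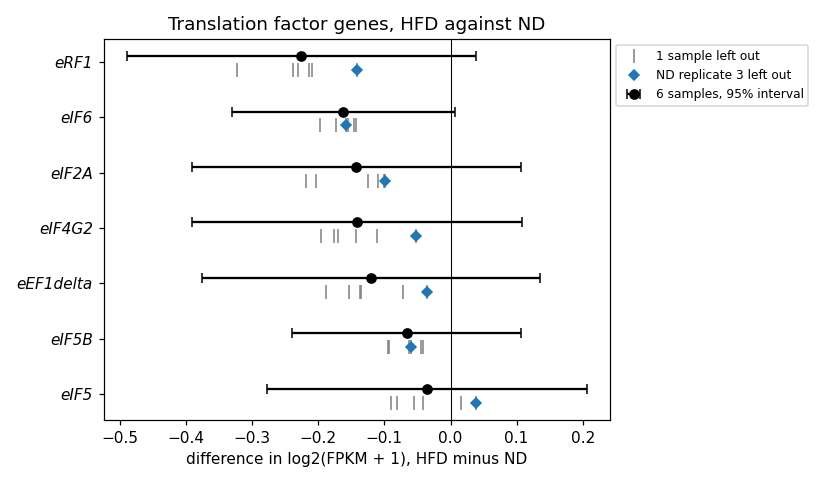
Difference in log2(FPKM + 1), HFD minus ND, for the 7 translation factor genes, with the 95% interval of limma on 6 samples (black), the values with each sample left out (grey) and with ND replicate 3 left out (blue). All 7 black intervals include 0, and for 5 of the genes, eRF1, eIF2A, eIF4G2, eEF1delta and eIF5, the blue value lies closest to or beyond 0.

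ND replicate 3 was the highest sample for 5 of the 7 genes, and ND replicate 1 for eIF5B and eIF6. ND replicate 3 was above the 6-sample mean of log2 values for 7 of the 7 genes. Its median deviation was 0.17, where the median over all genes tested was 0.097. HFD replicate 2 was the lowest sample for 4 of the 7 genes, and its median deviation was -0.11, while that of all genes was 0.0041. Compared with the mean of ND replicates 1 and 2, ND replicate 3 was higher by 0.22 in the median of the 7 genes and by 0.13 over all genes tested. eIF4G2, at 0.27, and eRF1, at 0.26, showed the largest of these shifts, and eIF5B and eIF6, at 0.018 and 0.013, the smallest. The parts of this library's low gut marker level, and of the lower Lsp2 level of the HFD samples, in the 7 values were not tested. Without ND replicate 3, 6 of the 7 genes were lower on HFD with a median of -0.060, and the median over all genes was 0.0075. Without ND replicate 3 and HFD replicate 2 the median of the 7 was -0.035, and eRF1 and eIF6 were at -0.15 and -0.14. With the summed level of digestive protease genes as a covariate the median was -0.073.

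Of the listed regulators and partners of translation factors, 23 of 34 names had values. On HFD, 4 of the 23 had a positive and 19 a negative log2 difference, with a median of -0.060. Over all genes tested, 57.2% had a negative log2 difference and the median was -0.027. With limma, 0 of 23 had an adjusted p under 0.05. At an unadjusted p under 0.05 there were 0 higher and 0 lower, with backgrounds of 3.11% and 3.6%. Every HFD sample was above every ND sample in 1 of the 23, Thor, with a background of 4.54%. Every HFD sample was below every ND sample in 2, rin and mTor, with a background of 8.07%. The counts in both directions were near these shares of all genes tested.

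Thor encodes the fly 4E-BP, which binds the cap-binding protein eIF4E and blocks it unless TOR signaling phosphorylates it. Thor mRNA was at 435, 352 and 325 FPKM in HFD samples, against 310, 307 and 262 FPKM in ND samples. The lowest HFD sample was just above the highest ND sample. The ratio of the means was 1.26 and the log2 difference was 0.33 (SE 0.14). In limma p was 0.0530 before and 0.736 after adjustment, and the exact permutation test gave p = 0.1. With 1 sample left out it lay between 0.21, without HFD replicate 1, and 0.42, without HFD replicate 3, where the limma p was 0.0328 before and 0.833 after adjustment. Without ND replicate 3 it was 0.25. rin encodes the fly G3BP, an RNA-binding protein of stress granules. It was at 43.6, 40.0 and 41.9 FPKM on HFD, against 44.9, 50.6 and 44.3 FPKM on ND. HFD minus ND was -0.15 on the log2 scale (SE 0.083, limma adjusted p = 0.866), and -0.18 without ND replicate 3.

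Of the listed genes of TOR signaling, mTor encodes the kinase itself. mTor was at 9.86, 9.92 and 9.90 FPKM in HFD samples, against 11.2, 10.3 and 11.7 FPKM in ND samples. The HFD samples were nearly equal and all below the ND samples. Counting error was not estimated for mTor, so whether the depth can resolve this closeness is not known. For mTor the log2 difference was -0.14 (SE 0.078, limma adjusted p = 0.862, exact permutation p = 0.1), and -0.10 without ND replicate 3. S6k, the kinase that phosphorylates ribosomal protein S6, averaged 27.3 ± 2.17 FPKM on HFD and 27.8 ± 2.50 FPKM on ND (SD, n = 3 each). raptor, a subunit of TOR complex 1, was at 12.9, 11.9 and 12.2 FPKM on HFD, against 12.1, 12.1 and 12.9 FPKM on ND. Rheb, the GTPase that activates this complex, was at 77.7, 73.6 and 59.8 FPKM on HFD, against 70.2, 65.7 and 64.9 FPKM on ND. In S6k, raptor and Rheb the diets overlapped, and their log2 differences were -0.025, -0.0030 and 0.063.

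The kinases that phosphorylate eIF2alpha are Gcn2, which senses uncharged tRNA, and PEK, which senses stress of the endoplasmic reticulum. Gcn2 was at 8.17, 7.70 and 7.45 FPKM on HFD, against 8.55, 7.94 and 8.79 FPKM on ND. PEK was at 18.2, 15.3 and 17.2 FPKM on HFD, against 16.8, 18.2 and 18.5 FPKM on ND. crc, the fly ATF4, which is translated when eIF2alpha is phosphorylated, was abundant at 573, 609 and 594 FPKM on HFD, against 550, 525 and 645 FPKM on ND. Lk6, a kinase of eIF4E, was at 311 to 341 FPKM on HFD and 317 to 364 FPKM on ND. None of these separated the diets.

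pAbp encodes the poly(A)-binding protein that joins the mRNA tail to eIF4G. It was nearly level over the 6 samples, at 312, 316 and 324 FPKM on HFD, against 325, 317 and 319 FPKM on ND. Its log2 difference of -0.015 had a 95% interval of -0.17 to 0.14 in limma. The helicase gene bel was at 60.9 to 64.5 FPKM on HFD and 64.0 to 67.1 FPKM on ND, and me31B, a helicase of mRNA repression, at 49.8 to 52.6 FPKM on HFD and 50.4 to 53.8 FPKM on ND.

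**Figure D4:**
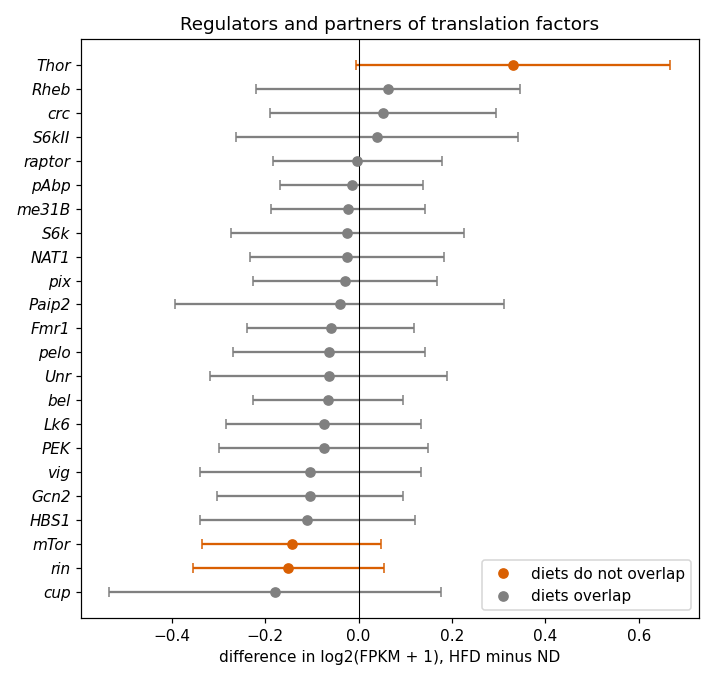
Difference in log2(FPKM + 1), HFD minus ND, with 95% intervals from limma, for the 23 regulators and partners of translation factors with values. Thor, at 0.33, rin, at -0.15, and mTor, at -0.14, are the genes in which the diets do not overlap (orange), and all intervals include 0.

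Cytosolic ribosomal proteins form the ribosome on which these factors act. Of 76 ribosomal protein genes tested, 69 were lower and 7 higher on HFD, with a median log2 difference of -0.073, where 57.2% of all genes tested were lower and their median was -0.027. In 7 of the 76 every HFD sample was below every ND sample, and in 0 above, with backgrounds of 8.07% and 4.54%. In the ribosomal protein genes ND replicate 3 was 0.11 below the mean of ND replicates 1 and 2 in the median, while the 7 translation factor genes were 0.22 above it. With limma, 0 of the 76 had an adjusted p under 0.05, and at an unadjusted p under 0.05 there were 0 higher and 1 lower, with backgrounds of 3.11% and 3.6%. The difference between these lists was not tested.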

How the data were processed

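Poly(A) RNA was sequenced by the authors on Illumina HiSeq instruments, HISAT is named in the submitters' processing notes, and uniquely mapped reads were kept. The authors deposited FPKM values (called RPKM in the deposited description), 12138 rows per sample. Genome build, annotation and counting tool are not given in the sources used here. For the 101 identifiers on several rows the first row was used. Locations are those of the BDGP6 annotation, which may not be the one behind the values. Symbols came from a gene name table (11794 of 11922 identifiers matched).

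log2(FPKM + 1) was compared between diets with limma 3.58.1 in R 4.3.3 (lmFit, trended eBayes). Genes averaging 0.5 FPKM or more entered, 8362 in all, with Benjamini-Hochberg adjustment over these genes. On this scale the change of a low gene comes out too small. A two-sided exact permutation test over 20 assignments was added for single genes. The study calls the samples biological replicates. Depth was estimated with 6033 genes of 1 transcript, and is approximate, since only 60.7% to 66.9% of low values came within 0.15 of whole fragments. Fragment numbers use the shortest transcript. The limma step was first tested on made data with known changes.

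Members and lists were chosen with earlier results of these data known. All 7 genes with values were described, and of the 23 regulators those whose diets separated, the TOR and eIF2alpha branches and relatives of members, picked after their values were seen. The listed names Tor and nos were matched by their current symbols, mTor and nanos. Of 8 planned ratios between factors, 0 had values for both genes. Alternatives were another pseudocount, filter, scaling and variance model, the replicate block, a protease covariate, summed rows and samples left out. Figures were drawn with matplotlib 3.10.9 in Python 3.11.15 (numpy 2.4.6, pandas 2.3.3).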

Additional observations from a re-analysis of the deposited data

How the results depend on the processing

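Of 160 values of the 7 translation factor genes, Thor, rin and mTor under 16 alternatives, 156 kept their direction and their side of an adjusted p of 0.05 in limma, and 4 changed sign. These were eIF5, at 0.029 with the protease covariate, 0.015 without HFD replicate 3 and 0.038 without ND replicate 3 (range with 1 sample left out -0.091 to 0.038), and eEF1delta, at 0.013 without both samples that stood apart. This last setting was chosen after seeing the data, and it also gave the median of the 7 genes as -0.035. The median lay between -0.17 and -0.060 with 1 sample left out. No alternative gave any of the 7 genes an adjusted p under 0.05, and the count at an unadjusted p under 0.05, lower on HFD, was 1 without a filter and with a mean of at least 5 FPKM (eIF6 in both), and 0 to 1 with 1 sample left out (eRF1 without ND replicate 1). The number of all genes with an adjusted p under 0.05 was 4, and became 1 without a filter, 7 with median-ratio scaling, 45 with the protease covariate, 7 without both samples and 1 to 5 with 1 sample left out (1 without HFD replicate 1 or 2, 2 without HFD replicate 3 or ND replicate 1). With the replicate number as a block it was 1, and the log2 differences were the same. Thor had an unadjusted limma p of 0.0376 with the block (adjusted p = 0.999). The replicate numbers are not described as a pairing in the sources used here, so they were not taken as pairs. The deviations of samples with the same number correlated at 0.31, -0.51 and -0.36. Those of HFD replicate 2 and ND replicate 3, the samples that stood apart, correlated at 0.55. With 2 such samples, these correlations cannot decide whether samples were paired. The planned ratios between factors, with their alternatives, were not run, since no pair had values for both genes. By the estimated depths, counting error was largest for eIF6, at 6.52% to 9.73% per sample.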
